A study of Mus musculus with 4 samples.

Results

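Stable broad H3K4me3 domains are stretches of chromatin in which peaks of histone H3 trimethylated on lysine 4 (H3K4me3) covered at least 5000 bp in each of 4 ChIP-seq peak lists from primary mouse macrophages. The peaks of the 4 lists were joined into regions wherever they overlapped by 1 bp or more, and the widths of the peaks in a region were summed for each list. Of 18786 regions, 455 reached 5000 bp in all 4 lists, which is 2.42% of all regions and 3.70% of the 12294 regions that had a peak in every list. The domains were thus chosen by their width in all 4 libraries. Their widths are a description, and no test was made of them.

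The macrophages were grown from bone marrow of mice whose background was 94% C57BL/6 and 6% 129/Ola and were used on day 7 of differentiation. The groups were Wbp7-/- cells with LPS, Wbp7-/- cells without treatment, Wbp7+/- cells with LPS and Wbp7+/- cells without treatment. Treated cells received 10 ug/ml lipopolysaccharide (LPS), a component of the bacterial outer membrane, for 4 h by the sample labels, and each group had 1 library. All of the cells lacked at least 1 functional copy of Wbp7, since the Wbp7+/- cells that serve as controls carry a single functional copy. Whether a library came from 1 animal or from several is not given in the sources used here, nor how the Wbp7 allele was made. The header of the Wbp7+/- LPS list names 24 h where the label says 4 h, so the length of that treatment is uncertain. Results that need its widths have no value without it. The number of domains and the counts in the other comparisons are given also without it.

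H3K4me3 lies around the start sites of active genes. Most starts carry a narrow peak beside the nucleosome-free region, whereas a small class carries the mark over several nucleosomes into the gene body. In many mammalian cell types such broad domains are known to mark genes of cell identity and genes transcribed with high consistency. The mark is placed by several enzyme complexes, among them those of Setd1a and Setd1b and those of the MLL family. Wbp7, also called Kmt2b, is a member of the MLL family and holds a CXXC domain that binds CpG-rich DNA without methylation. LPS acts on macrophages through the receptor Tlr4, and genes induced by it gain histone marks of active transcription within hours. Positions are given in the mm9 mouse build, counted from 1. A genome and gene annotation of mm9 were not used here, so the domains are described by position, no gene is assigned to them and marker genes of macrophages or of other cells were not analysed.

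The lists held 15086 peaks in Wbp7-/- LPS cells, 14599 in untreated Wbp7-/- cells, 17313 in Wbp7+/- LPS cells and 17316 in untreated Wbp7+/- cells. The read depth of the libraries is unknown. The part of depth and of list length in the width differences below was not tested. With 1 library per group, no difference has a replicate check. The comparison of genotypes in LPS-treated cells and that in untreated cells use separate libraries, and so do the LPS comparisons of the 2 genotypes.

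A width of 5000 bp was reached in any of the lists by 1006 regions, and 45.2% of these were stable broad domains. A further 149 regions reached it in exactly 3 lists, 215 in exactly 2 and 187 in 1. Among the regions wide in 2 lists, 118 were wide in both LPS lists alone and 21 in both untreated lists alone. There were 33 wide in both Wbp7-/- lists alone and 36 in both Wbp7+/- lists alone. The crossed pairs, 1 list of each genotype and of each treatment, gave 3 and 4 such regions. The largest class wide in a single list, with 82 regions, was that of Wbp7+/- LPS cells, and leaving this list out of the rule raised the number of domains to 517.

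**Figure D1:**
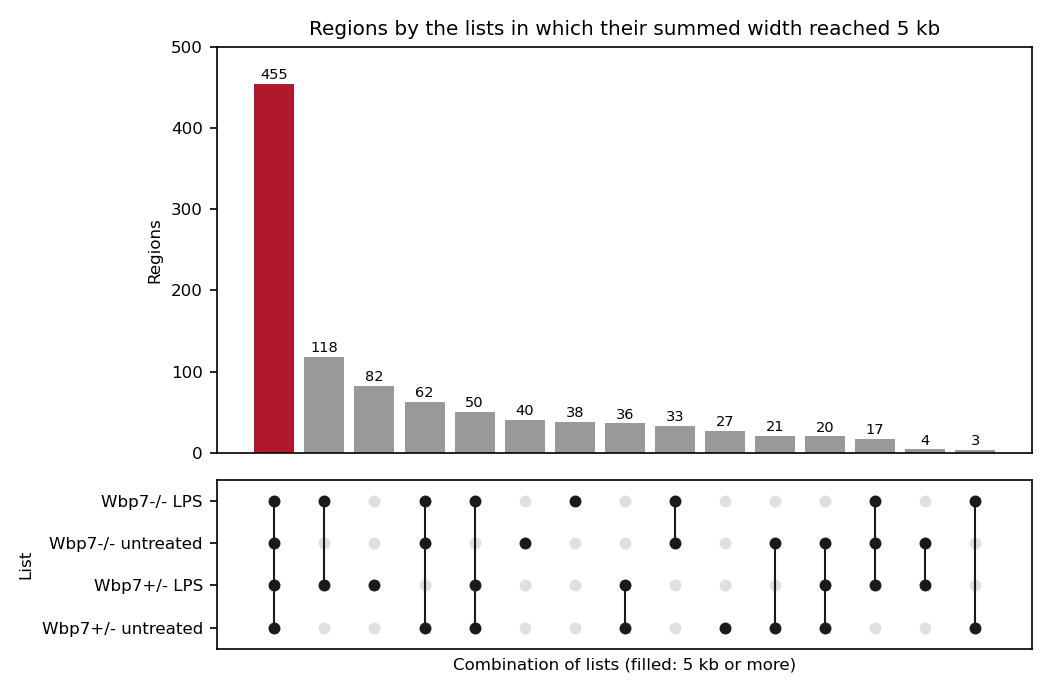
The bars count the regions whose summed H3K4me3 peak width reached 5 kb in each combination of lists, which the filled dots below name. The 455 stable broad domains (red) are the largest class, and the 118 regions wide in both LPS lists alone are the next.

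At the threshold the domains pass into neighbouring regions without a gap. Just inside it, the region on chromosome 2 from 174259681 to 174266323 measured 5803 bp in Wbp7-/- LPS cells, 5000 bp in untreated Wbp7-/- cells, 6526 bp in Wbp7+/- LPS cells and 6643 bp in untreated Wbp7+/- cells. The next, on chromosome 9 from 21039220 to 21044652, had a lowest width of 5000 bp, and that on chromosome 17 from 36051707 to 36057230 had one of 5002 bp. Just outside it, the lowest width was 4996 bp on chromosome 5 from 138069015 to 138074285 and equally on chromosome 8 from 80037747 to 80043493. It was 4995 bp on chromosome 3 from 87328690 to 87335000.

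The median domain was 6587 bp wide in Wbp7-/- LPS cells, 6427 bp in untreated Wbp7-/- cells, 6512 bp in Wbp7+/- LPS cells and 6513 bp in untreated Wbp7+/- cells. The middle 50% lay between 5820 and 7822 bp, 5653 and 7501 bp, 5693 and 7666 bp, and 5708 and 7525 bp in the same order of lists. The typical width thus differed by less than 200 bp between the libraries. By the mean over the 4 lists, 150 domains were under 6000 bp wide, 142 from there to under 7000 bp, 76 to under 8000 bp and 56 to under 10000 bp. A further 19 were under 12000 bp, and 12 were wider still. The domains held 9.50% of the length covered by peaks in Wbp7-/- LPS cells, 9.39% in untreated Wbp7-/- cells, 9.15% in Wbp7+/- LPS cells and 9.20% in untreated Wbp7+/- cells.

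The widest domain lay on chromosome 15 from 76017497 to 76039250. Its single peak measured 21754 bp in Wbp7-/- LPS cells, 19865 bp in untreated Wbp7-/- cells, 19950 bp in Wbp7+/- LPS cells and 20129 bp in untreated Wbp7+/- cells. The Wbp7-/- LPS library was thus the only one to stand apart, and the bases common to all 4 lists made up 91.0% of those covered by any. The domain next in width, on chromosome 13 from 63340147 to 63356555, measured 16198, 16139, 14946 and 15161 bp in the same order of lists. There both Wbp7-/- libraries were wider than both Wbp7+/- libraries, by 1.08-fold with LPS and 1.06-fold without.

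Several of the widest domains were almost the same in every library. The domain on chromosome 3 from 89188348 to 89201013 was 12461 bp wide in Wbp7-/- LPS cells, 12572 bp in untreated Wbp7-/- cells, 12542 bp in Wbp7+/- LPS cells and 12514 bp in untreated Wbp7+/- cells, so that the widest value was 1.01 times the narrowest. On chromosome 8 from 129107868 to 129120324 the widths were 12420, 12395, 12167 and 12350 bp in that order. On chromosome 7 from 31197672 to 31209808 they were 11919, 12097, 11992 and 12046 bp. At these 3 domains 96.7 to 97.6% of the covered bases were common to all lists. The share was 96.9% for a domain on chromosome 5 from 143574517 to 143585923 and 94.5% for another on chromosome 11 from 70458920 to 70470691.

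Others of the widest domains differed in a single library or between treatments. On chromosome 19 from 5835068 to 5850895 the peak measured 11593 bp in Wbp7-/- LPS cells and 15828 bp in untreated Wbp7-/- cells, against 11250 bp in Wbp7+/- LPS cells and 11121 bp in untreated Wbp7+/- cells. On chromosome 2 from 166878400 to 166892464 the width was 14038 bp in Wbp7-/- LPS cells and 9243 bp in untreated Wbp7-/- cells, and 13370 bp in Wbp7+/- LPS cells and 12274 bp in untreated Wbp7+/- cells. Here the untreated Wbp7-/- library was the narrow one. On chromosome 17 from 34044624 to 34060333 the widths were 15240 and 10173 bp in Wbp7-/- cells with and without LPS and 15590 and 12646 bp in Wbp7+/- cells with and without LPS. Both LPS libraries were wider there than both untreated libraries.

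On the same chromosome, the domain from 34251123 to 34263077 differed by less, at 11844 bp with LPS and 10780 bp untreated in Wbp7-/- cells and 11532 bp with LPS and 10786 bp untreated in Wbp7+/- cells. On chromosome 10 from 59739624 to 59753615 the genotypes separated instead, with 12075 and 12088 bp in Wbp7-/- LPS and untreated cells, against 13960 and 13806 bp in Wbp7+/- LPS and untreated cells. The widths on chromosome 2 from 44958553 to 44973474 were also lower in Wbp7-/- than in Wbp7+/- cells, with 12736 against 14916 bp after LPS and 12370 against 13226 bp untreated. The other members of the widest 20 had mean widths between 10860 and 12293 bp. They lay on chromosome 13 from 24889040 to 24903324, chromosome 8 from 87498195 to 87511376 and chromosome 5 from 34868298 to 34879895. Others lay on chromosome 5 from 58105272 to 58116816, chromosome 2 from 129417307 to 129429552 and chromosome 14 from 63740324 to 63752434. The domain on chromosome 15 from 76002578 to 76015133 is described below. That on chromosome 13 was wider in Wbp7-/- than in Wbp7+/- cells, with 13625 against 9548 bp after LPS and 14086 against 11912 bp untreated.

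**Figure D2:**
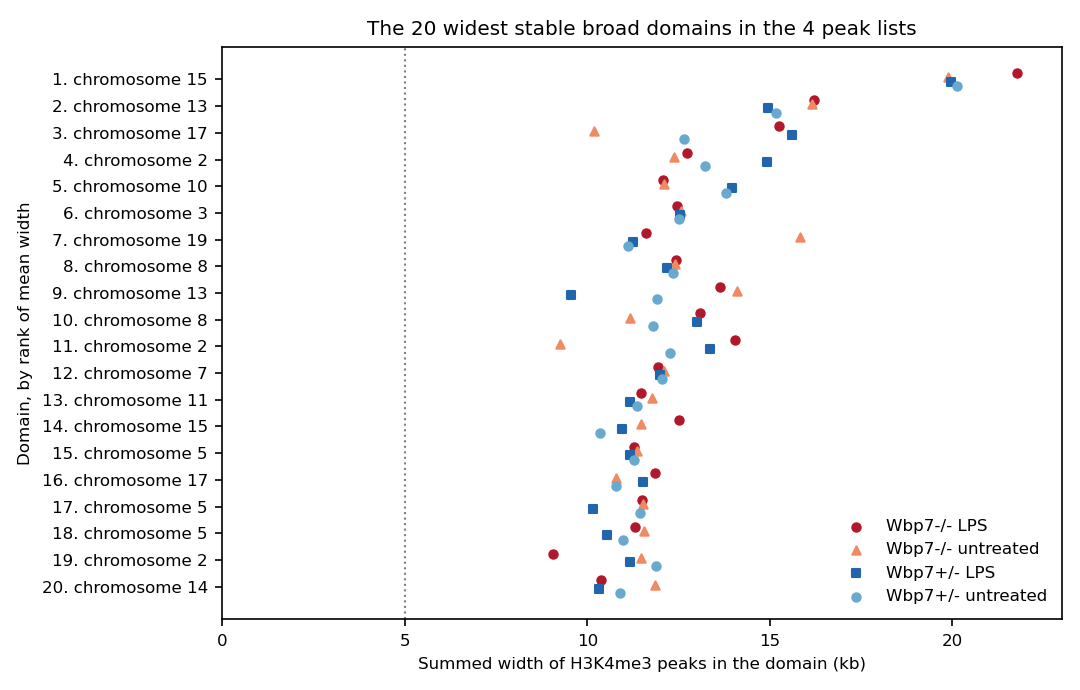
Each row is 1 of the 20 widest domains, by mean width, and each symbol is its summed peak width in kb in 1 list, with the 5 kb threshold dotted. The domain on chromosome 15 stands apart at about 20 kb in every list, and several rows, such as the domain of rank 6, show 4 symbols on top of each other.

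A domain was often made of more than 1 peak. In Wbp7-/- LPS cells 331 of the 455 domains were a single unbroken peak, in untreated Wbp7-/- cells 338, in Wbp7+/- LPS cells 316 and in untreated Wbp7+/- cells 302. Domains were thus broken least often in the shorter Wbp7-/- lists. An unbroken peak in all 4 lists was seen at 210 domains, and 30 were broken in all 4. Domains broken in both Wbp7+/- lists and unbroken in both Wbp7-/- lists numbered 16, against 8 with the opposite pattern. Between treatments the counts were 9 in each direction. These counts were not made for other regions, so they are not read as a trait of the domains or as a genotype difference. A single peak of 5000 bp or more in every list was present at 310 domains.

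Nearly all domains were strong by the score of the authors' peak caller, which piles up at 3100 in these lists, called the ceiling below. It is not a strict limit, since a score can pass it, such as 3128.88 at a domain in Wbp7-/- LPS cells. The ceiling was reached in every list by 448 domains, or 98.5%, beside 8423 of the 12294 regions with a peak in every list. The clearest exception was the domain on chromosome 15 from 76002578 to 76015133, which ended 2363 bp before the widest domain. Its highest score was 2007.69 in Wbp7-/- LPS cells, 2979.31 in untreated Wbp7-/- cells, 597.73 in Wbp7+/- LPS cells and 876.41 in untreated Wbp7+/- cells. Its widths were 12501, 11469, 10957 and 10334 bp in that order, and in untreated Wbp7+/- cells it was split into 6 peaks. This exception was wide and low in score at once, and below the ceiling in all 4 lists. Scores grow with the unknown depth and give no difference between libraries. The other 6 domains below the ceiling in a list were on chromosomes 2, 5, 9, 11 and X.

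The domains overlapped base by base. Of the 3471 kb covered by any list, 82.7% was covered by all 4, 6.63% by 3 lists and 5.18% by a single list. The median domain had 85.6% of its bases in common, and the range ran from 36.8 to 98.9%. The common part was at least 5000 bp long in 423 of the 455 domains. For comparison, 7975 other regions were at the ceiling in every list, and 78.1% of their covered bases were common. Of these, the 1987 regions at least 3000 bp wide in every list had 80.0% in common. The widest value was a median of 1.13 times the narrowest in the domains, 1.15 times in the strong regions from 3000 bp and 1.22 times in all regions found in the 4 lists. The domains had to pass a width in every list and the other regions did not, so these figures describe the sets and are no test of a difference.

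In bases rather than in ratios, the domains differed more between libraries than narrower regions did. The median absolute difference in width was 295 bp between Wbp7-/- and Wbp7+/- untreated cells, 328 bp between the genotypes after LPS, 356 bp between LPS and untreated Wbp7-/- cells and 410 bp between LPS and untreated Wbp7+/- cells. In the strong regions from 3000 bp the same differences were 213, 242, 213 and 231 bp. The ratio of widest to narrowest value, given above, had the opposite order.

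Where a base was covered by exactly 2 lists, the pair most often shared a treatment. Bases covered in both LPS lists alone came to 74.0 kb, or 2.13% of the covered length, and those in both untreated lists alone to 35.3 kb, or 1.02%. Bases in both Wbp7-/- lists alone came to 38.1 kb (1.10%) and those in both Wbp7+/- lists alone to 27.2 kb (0.783%). The crossed pairs held 8.41 and 6.55 kb, or 0.242 and 0.189%. Most of these bases lay outside the common part, at the domain's edges, with 72.0% of the bases in both LPS lists alone and 84.2% of those in both Wbp7-/- lists alone. The other bases filled gaps within the domain. In all other ceiling regions, bases in both Wbp7-/- lists alone made up 2.70% of the covered length, against 1.55% in those of at least 3000 bp. Bases in both LPS lists alone made up 2.12% and 2.73% of these sets, and those in both untreated lists alone 1.12% and 1.10%. The LPS and untreated shares of the domains were thus near those of other strong regions. Outside the common part lay 98.5% and 97.2% of the bases in both LPS lists alone in these sets. For both Wbp7-/- lists alone the shares were 99.4% and 98.4%.

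**Figure D3:**
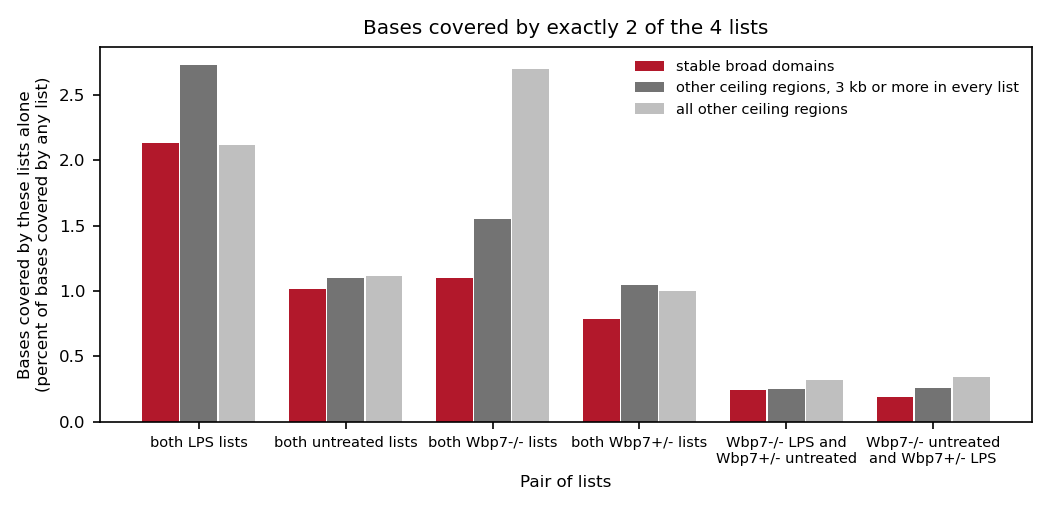
The bars give the bases covered by exactly 2 of the lists as a percent of all bases covered by any list, for the domains (red) and for other regions at the score ceiling (grey). In the domains the pair of LPS lists holds the largest share, at 2.13%, and the crossed pairs, which differ in both genotype and treatment, the smallest, at 0.242 and 0.189%.

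The first comparison asked whether the width of the domains moves with the loss of Wbp7. In untreated cells the median ratio of Wbp7-/- to Wbp7+/- width was 1.00, and 90% of domains lay between 0.835 and 1.13. A domain was called wider where its width was more than 25% greater in Wbp7-/- cells, and narrower where it was more than 20% smaller, which is the inverse ratio. By this measure 5 domains (1.10%) were wider and 16 (3.52%) narrower in Wbp7-/- cells, beside 10.3% wider and 9.09% narrower over all regions found in the 4 lists. At the ceiling regions, 7.33% were wider and 3.17% narrower. After LPS the median ratio was 1.01, with 19 domains (4.18%) wider and 13 (2.86%) narrower, beside 12.7% and 9.41% of all regions and 9.79% and 3.45% of ceiling regions. In the strong regions from 3000 bp, 2.82% were wider and 4.03% narrower untreated, and 4.63% and 3.72% after LPS. The rule used these same widths, so the low counts among the domains are not read as a result. Without the Wbp7+/- LPS list in the rule, 7 of 517 domains were wider and 16 narrower in untreated Wbp7-/- cells. The median ratio of all ceiling regions was 1.04 untreated and 1.05 after LPS. With each ratio divided by that median, the balance after LPS turned to 11 domains wider and 19 narrower in Wbp7-/- cells. Untreated, the same division gave 5 wider and 23 narrower. In the strong regions from 3000 bp the median ratio was 1.02 in both treatments.

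Past these limits in both treatments, 2 of the 455 domains were wider and 2 narrower in Wbp7-/- cells. The shares were 5.13% wider and 4.99% narrower among all regions, and 3.21% and 1.08% among ceiling regions. Of the 1987 strong regions from 3000 bp, 18 were wider and 26 narrower in both treatments. The rule used these same widths, so the low counts among the domains are not read as a result. Past these limits, no domain was wider in Wbp7-/- cells under one treatment and narrower under the other. Such opposite changes were rare in the other sets too. Of all 12294 regions, 38 were wider untreated and narrower after LPS, and 31 the reverse. Of the 7975 other ceiling regions the counts were 9 and 5. Over the 455 domains the log2 ratios of the 2 treatments had a Pearson r of 0.36 and a Spearman rho of 0.37. In the strong regions from 3000 bp both were 0.46. The points share no library between the axes, but all domains share the depths of the 4 libraries.

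Ranked by the lower of the 2 treatments' ratios, the first of the domains wider in Wbp7-/- cells lay on chromosome 1 from 187026730 to 187034530. It measured 7550 bp in Wbp7-/- LPS and 7567 bp in untreated Wbp7-/- cells, against 5261 bp in Wbp7+/- LPS and 5334 bp in untreated Wbp7+/- cells. The ratio was 1.44 after LPS and 1.42 untreated. Of the 2229 bp covered in both Wbp7-/- lists alone, 1672 bp extended the domain toward higher coordinates and 557 bp filled a gap. The next, on chromosome 13 from 23621690 to 23629695, measured 7815 and 7993 bp in Wbp7-/- LPS and untreated cells, against 5789 and 6003 bp in Wbp7+/- LPS and untreated cells. There 1619 bp of the added 1935 bp lay at the higher end.

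On chromosome 7 from 53172292 to 53180488 the ratio was 1.35 after LPS and 1.23 untreated, with 1029 bp at the lower end covered in both Wbp7-/- lists alone. On chromosome 9 from 108006478 to 108014814 it was 1.22 and 1.33, and from 65970058 to 65978440 it was 1.21 in both treatments. None of these 3 passed the limit in both treatments. The domains named here were picked for their ratios, so their direction in both treatments follows from the choice.

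Ranked by the higher of the 2 treatments' ratios, the first of the domains narrower in Wbp7-/- cells lay on chromosome 2 from 75533637 to 75543962. It measured 7253 bp in Wbp7-/- LPS and 6167 bp in untreated Wbp7-/- cells, against 10208 bp in Wbp7+/- LPS and 10169 bp in untreated Wbp7+/- cells. The ratios were 0.711 after LPS and 0.606 untreated, and all 2785 bp covered in both Wbp7+/- lists alone lay at the lower end. On chromosome 8 from 11001897 to 11010365 the widths were 6192 and 6006 bp in Wbp7-/- LPS and untreated cells, against 8319 and 7718 bp in Wbp7+/- LPS and untreated cells. There the bases in both Wbp7+/- lists alone were 724 bp inside the domain and 488 bp at the lower end.

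Next followed a domain on the X chromosome from 166426312 to 166436025, with 7860 and 6790 bp in Wbp7-/- LPS and untreated cells, against 9460 and 9521 bp in Wbp7+/- LPS and untreated cells. On chromosome 11 from 86565363 to 86572941 the ratio was 0.812 after LPS and 0.837 untreated, with 1337 bp at the lower end covered in both Wbp7+/- lists alone. On chromosome 2 from 167168870 to 167177170 it was 0.697 and 0.838. None of these last 3 passed the limit in both treatments. In 3 of these 5 domains the bases covered in both Wbp7+/- lists alone lay wholly at the lower end, and on the X chromosome they lay wholly inside the domain. These 5 domains too were picked for their ratios, so their direction in both treatments follows from the choice.

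**Figure D4:**
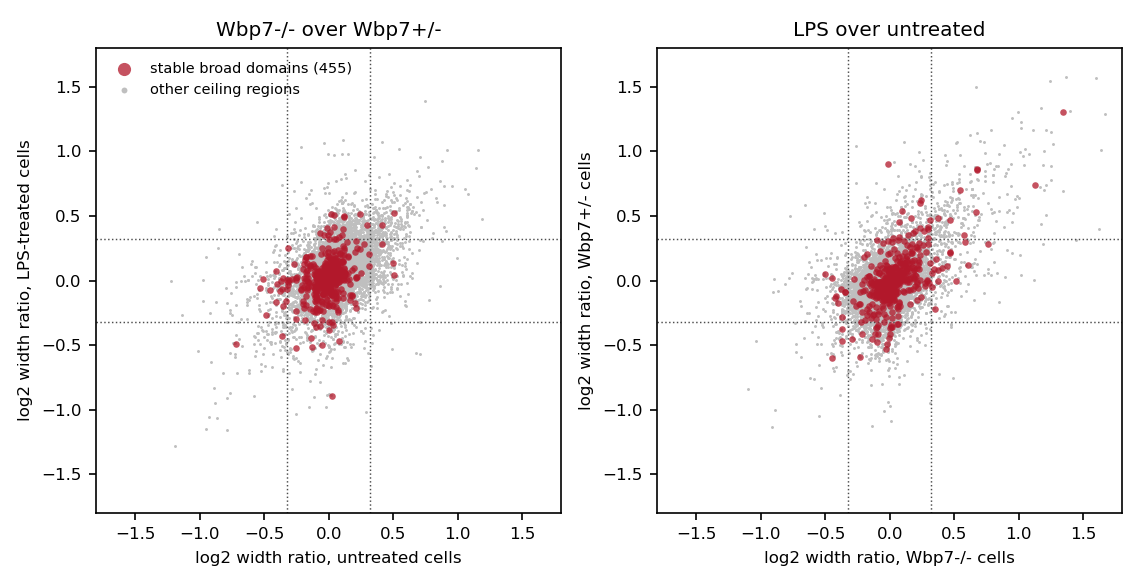
Each point is a region, plotted by the log2 ratio of its summed widths in 2 comparisons that share no library, for Wbp7-/- over Wbp7+/- (left) and LPS over untreated (right), with dotted lines at a width 25% greater and 20% smaller. The domains (red) lie near 0 on all axes, and on the right 1 domain reaches ratios of 2.54 in Wbp7-/- and 2.47 in Wbp7+/- cells.

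The second comparison asked how LPS moves the width of domains that are broad before and after it. In Wbp7-/- cells the median ratio of LPS to untreated width was 1.01, with 24 domains (5.27%) wider and 12 (2.64%) narrower by the same limits. Over all regions found in the 4 lists the shares were 7.98% and 6.77%, and over ceiling regions 5.2% and 3.42%. In Wbp7+/- cells the median ratio was 0.994, with 26 domains (5.71%) wider and 24 (5.27%) narrower, beside 7.69% and 8.14% of all regions and 5.82% and 5.25% of ceiling regions. Divided by the median ratio of ceiling regions, 0.974, these became 35 wider and 17 narrower. In Wbp7-/- cells the same division, by 0.981, gave 31 wider and 10 narrower. In the strong regions from 3000 bp, 7.65% were wider and 2.11% narrower in Wbp7-/- cells, and 7.75% and 3.82% in Wbp7+/- cells. The counts of domains rest on widths that the rule used, and those of Wbp7+/- cells on the list whose treatment time is uncertain. Without that list in the rule, 24 of 517 domains were wider and 14 narrower with LPS in Wbp7-/- cells.

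Over the 455 domains the Pearson r between the LPS log2 ratios of Wbp7-/- and Wbp7+/- cells was 0.62 and the Spearman rho 0.55. In the strong regions from 3000 bp the r was 0.64 and the rho 0.53. Over all 12294 regions found in the 4 lists the r was 0.46 for these LPS ratios and 0.58 for the genotype ratios. Past the limits in both genotypes, 9 domains were wider with LPS and 3 narrower, beside 4.05% and 1.72% of all regions and 2.99% and 0.736% of ceiling regions. Of the 1987 strong regions from 3000 bp, 96 were wider and 13 narrower in both genotypes. No domain changed in opposite directions past these limits, and such changes were rare in the other sets too. Of all 12294 regions, 37 were wider with LPS in Wbp7-/- and narrower in Wbp7+/- cells, and 38 the reverse. Of the 7975 other ceiling regions the counts were 6 and 8.

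Ranked by the lower of the 2 genotypes' ratios, the largest ratio of LPS to untreated width was on chromosome 2 from 34806967 to 34821594. The domain measured 14083 bp with LPS and 5544 bp untreated in Wbp7-/- cells, and 14035 bp with LPS and 5688 bp untreated in Wbp7+/- cells. The ratio was 2.54 in Wbp7-/- and 2.47 in Wbp7+/- cells, and the genotypes differed by less than 200 bp in either treatment. In untreated cells of both genotypes the width was made of 4 separate peaks below the ceiling, with highest scores of 885.65 in Wbp7-/- and 1392.12 in Wbp7+/- cells. Both LPS lists alone covered 7643 bp, of which 4177 bp extended the domain at its lower end and 3448 bp lay inside it, between stretches common to all lists. With LPS it was made of 4 peaks in Wbp7-/- and 2 in Wbp7+/- cells. It thus passed the threshold in untreated cells as a sum of short peaks and not as a single broad one.

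On chromosome 11 from 54765058 to 54777530 the width was 11796 bp with LPS and 5408 bp untreated in Wbp7-/- cells, and 12407 and 7409 bp in Wbp7+/- cells with LPS and untreated. Most of the 4233 bp shared by the LPS lists alone, 3238 bp, lay between peaks of the untreated cells. On chromosome 6 from 121193574 to 121202696 a single peak was longer with LPS, and 2965 of the 3115 bp covered in both LPS lists alone lay at its higher end. It measured 8299 and 5184 bp in Wbp7-/- LPS and untreated cells, and 9123 and 5046 bp in Wbp7+/- LPS and untreated cells.

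On the X chromosome from 166412344 to 166422044 the ratio was 1.60 in Wbp7-/- and 1.82 in Wbp7+/- cells, with 2154 bp added at the lower and 1078 bp at the higher end. On chromosome 4 from 134820883 to 134829994 it was 1.46 and 1.62, with 1913 bp added at the lower end. The 4 other domains wider with LPS in both genotypes lay on chromosomes 2, 7, 9 and 17, with ratios between 1.28 and 1.59.

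At the domains narrowest with LPS, the bases covered in both untreated lists alone lay at 1 or both ends. Ranked by the higher of the 2 genotypes' ratios, the first was on chromosome 19 from 46574048 to 46587093, with 9226 bp with LPS and 12592 bp untreated in Wbp7-/- cells, and 8196 bp with LPS and 12396 bp untreated in Wbp7+/- cells. All 3122 bp covered in both untreated lists alone lay at its higher end. On the same chromosome, the domain from 5566492 to 5573611 measured 5503 and 7115 bp in Wbp7-/- LPS and untreated cells. In Wbp7+/- LPS and untreated cells it measured 5076 and 7021 bp. Both untreated lists alone covered 1588 bp at its higher end.

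The domain on chromosome 9 from 65970058 to 65978440, given above with a ratio of 1.21 between the genotypes, was narrower with LPS. It measured 6364 bp with LPS and 8217 bp untreated in Wbp7-/- cells, and 5242 bp with LPS and 6786 bp untreated in Wbp7+/- cells, and both ratios came to 0.77. On chromosome 10 from 127052073 to 127060194 the ratio was 0.815 in Wbp7-/- and 0.729 in Wbp7+/- cells. On chromosome 2 from 148263285 to 148270382 it was 0.776 and 0.822, and neither of these domains passed the limit in both genotypes. The domains named as wider or narrower with LPS were picked for their ratios, so their direction in both genotypes follows from the choice.

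A single library set the lowest genotype ratio after LPS. On chromosome 18 from 4344350 to 4355375, a domain picked out after its values were seen, the peak measured 5920 bp in Wbp7-/- LPS and 5979 bp in untreated Wbp7-/- cells, against 10997 bp in Wbp7+/- LPS and 5889 bp in untreated Wbp7+/- cells. Only the Wbp7+/- LPS library was wide, and this is the library with the uncertain time. Without it, the widest of the 3 other values was less than 1.1 times the narrowest.

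**Figure D5:**
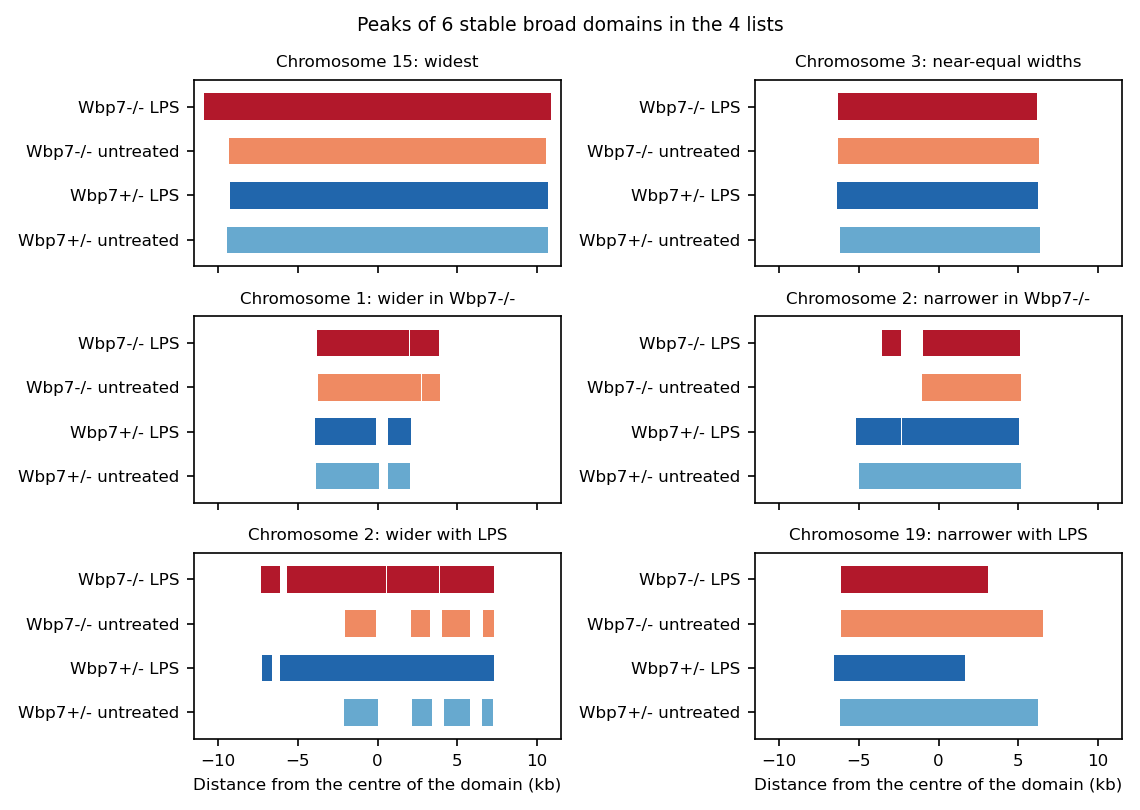
Bars show the peaks of 6 domains in each list, by distance in kb from the centre of the joined region. The domain on chromosome 3 has near-identical ends in all 4 lists. The genotype examples differ mostly at 1 end, and the domain on chromosome 2 wider with LPS is 4 peaks in untreated cells of both genotypes, and with LPS 4 peaks in Wbp7-/- and 2 in Wbp7+/- cells.

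The domains lay on all 20 chromosomes represented in the lists. Chromosome 11 held most, with 49 of its 1022 regions found in all lists (4.79%, 95% Wilson interval 3.65 to 6.28), followed by chromosome 7 with 39 of 885 (4.41%, 3.24 to 5.97). The lowest shares were on chromosome 18, with 7 of 324 (2.16%, 1.05 to 4.39), and on the X chromosome, with 8 of 364 (2.20%, 1.12 to 4.28). The intervals cover counting error over regions alone. Those of the lowest and highest chromosomes overlap.

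The distance from a domain to other regions was not a criterion of the rule, although the joining of overlapping peaks sets where a region ends. Another region of any list lay within 5 kb of 190 domains (41.8%), compared with 29.1% of the strong regions from 3000 bp and 21.2% of all other ceiling regions. For regions called in fewer than 4 lists the shares were 26.6%, 16.8% and 9.50%. The median distance to such a partly called region was 20.8 kb from a domain, 46.1 kb from a strong region of at least 3000 bp and 60.3 kb from the other ceiling regions. The shares were thus highest in the widest set. Whether these neighbours are fragments of the domains was not tested. With peaks joined across gaps of up to 1 kb, the number of domains came to 525. Regions called only in both Wbp7+/- lists lay within 5 kb of 15 domains (3.30%), and those called only in both Wbp7-/- lists within 5 kb of 6 (1.32%). These shares were 2.11% and 0.705% in the strong regions from 3000 bp, and 1.59% and 0.552% in all other ceiling regions. The order was the same in every set, so it is not read as a trait of the domains. Within 1 kb of a domain the order was the opposite, with 2 domains (0.440%) and 4 domains (0.879%).

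Some domains were close to each other. Within 50 kb of another domain lay 48 domains (10.5%), in 21 pairs and 2 runs of 3, whereas a domain lay within 50 kb of 4.93% of the strong regions from 3000 bp. The densest run was on chromosome 15 from 76002578 to 76064311. It held the widest domain, the low-scoring domain before it and a domain from 76055071 to 76064311 of 8611 and 8883 bp in Wbp7-/- LPS and untreated cells and 9105 and 8671 bp in Wbp7+/- LPS and untreated cells. The summed mean width of the run was 40.6 kb over a span of 61.7 kb. The other run of 3 was on chromosome 9 from 107453126 to 107538668.

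Pairs of domains less than 5 kb apart lay on chromosomes 5, 7, 15 and X. The pair on the X chromosome spanned 166412344 to 166436025. It held both the domain wider with LPS and the domain narrower in untreated Wbp7-/- cells, at 4267 bp from each other. In the LPS comparison the second of these had ratios of 1.16 in Wbp7-/- and 0.994 in Wbp7+/- cells. The first had ratios of 1.60 and 1.82. Both were thus wider with LPS in Wbp7-/- cells, and only the first in Wbp7+/- cells. On chromosome 5 the domains from 34868298 to 34879895 and from 34882961 to 34893819, with mean widths of 11156 and 9748 bp, were 3065 bp apart.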

How the data were processed

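Reads were aligned with Bowtie to mm9, per the submitters' processing notes, and peaks were called with MACS against an input for each library separately, per the file headers. No version, threshold or read number is given in the sources used here. The deposited score of each peak is the peak caller's, and its lowest value is 50 to 50.03 in the 4 lists. It was used to class regions as at the ceiling, with a score of 3100 or more, and, in 1 alternative, to drop peaks scoring under 100. An absent or shorter peak means that the caller's threshold was not passed, not that the mark was absent.

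Peaks were joined and widths (end minus start) summed per region and list in Python 3.11.15 with pandas 2.3.3 and numpy 2.4.6. All 18786 regions were identical to those of bedtools 2.31.1. Widths were called wider above 25% more and narrower below the inverse ratio, 20% less. Wilson intervals came from scipy 1.17.1 and plots from matplotlib 3.10.9. The calculation was tested on simulated data. The named domains are the 20 widest, the 5 with the largest and the 5 with the smallest ratio in both treatments or both genotypes, and the 3 nearest on each side of the width threshold. The members and lists were chosen with earlier results of these data known. The planned gene lists, gene counts and base composition were not run, since they need an mm9 annotation and genome, not used here.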

Additional observations from a re-analysis of the deposited data

How the results depend on the processing

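The number of domains was 997 with a width of 4000 bp and 212 with 6000 bp. Between 310 and 525 were found under the other ways of joining, summing or filtering peaks, and 472 to 517 when the rule left out 1 list. The share of domains past the width fold, in each comparison and direction, was recomputed under 7 planned settings. Of 56 values, 38 stayed inside the 95% Wilson interval of the reported share. That interval covers counting error over domains alone, and all domains share the same 4 libraries. The settings reuse many of the same domains, and a limit of 1.5-fold cannot raise a share. The count of values inside is therefore no measure of reliability. At 1.5-fold no domain was wider in Wbp7-/- cells in either treatment (0%) and 0.22% were narrower in each. With LPS, 1.54% were wider and 0% narrower in Wbp7-/- cells, and 1.76% wider and 0.44% narrower in Wbp7+/- cells. With the widest single peak, 3.87% were wider in untreated Wbp7-/- cells, 7.10% wider and 6.13% narrower in Wbp7-/- cells after LPS, and 8.71% wider with LPS in Wbp7+/- cells. With peaks joined within 1 kb, 5.14% were narrower in Wbp7-/- cells after LPS and 8.38% wider with LPS in Wbp7+/- cells. With a width of 6000 bp, 2.36% were wider in Wbp7-/- cells after LPS, and 1.42% in Wbp7-/- and 3.77% in Wbp7+/- cells were wider with LPS. Divided by the median ratio of ceiling regions, 2.42% were wider in Wbp7-/- cells after LPS. The cause of these moves was not tested. Joining at an overlap of 500 bp was run for the number of domains alone. Leaving the Wbp7+/- LPS list out of the rule, chosen after seeing the data, kept the 4 shares that could be had inside their intervals. No paired analysis was possible because each group has 1 library and the groups share no replicate numbers beyond 1. The unknown depth limits every width.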
